A study of Mus musculus with 4 samples.

Results

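The exons and splice junctions described here belong to the 4 genes of Ca2+/calmodulin-dependent protein kinase II (*Camk2a*, *Camk2b*, *Camk2d* and *Camk2g*) and to the 3 genes of the calcineurin catalytic subunit (*Ppp3ca*, *Ppp3cb* and *Ppp3cc*). They were chosen by gene: each row of the deposited splicing tables is a trio of neighbouring exons, and a trio was given to a gene when its chromosome, strand, middle exon length and both intron lengths matched the GENCODE M21 annotation. In this way 169 of 228333 trios fell to the 7 genes, 19 in *Camk2a*, 35 in *Camk2b*, 45 in *Camk2d*, 24 in *Camk2g*, 14 in *Ppp3ca*, 17 in *Ppp3cb* and 15 in *Ppp3cc*. These trios hold 121 different middle exons, of which 18 are labelled as cassette exons in the tables.

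The study removed PTBP2, a neuronal RNA-binding protein that acts on alternative exons, by deleting a loxP-flanked exon of *Ptbp2* with Nestin-Cre or Emx-Cre. The RNAseq libraries come from whole brain at embryonic day 18 of NesKO mice (genotype label PTBP2 Nestin-KO) and wild-type littermates, 2 brains each, and from cortex at postnatal day 1 of EmxKO mice (genotype label PTBP2 Emx-KO) and wild-type littermates; the strain label of all animals is Mixed C56Bl/6:129S2 background. Nestin-Cre acts in neural progenitors and Emx-Cre in projection neurons of the higher forebrain, so other cells of the tissue, such as microglia and vessels, are not targeted. Each of the 4 groups is 1 library, so every test below compares the reads of 2 libraries and none measures how animals vary. How many animals gave the P1 cortices is not stated in the sources used here. Where 4 values follow each other, their order is E18 knockout, E18 wild type, P1 knockout, P1 library labelled wild type. The E18 libraries were not strand specific and the P1 libraries were, and stage, tissue and library protocol cannot be told apart between E18 and P1. Reads on distinct junctions numbered 49445721, 51267564, 84793098 and 85073560. The summed level of 4 markers of cortical projection neurons (RPM per junction, the reads on a junction scaled by the reads on all junctions of the library) was 19.4, 23.1, 60.8 and 68.0, and that of 4 markers of subcortical neurons 5.45, 6.59, 0.932 and 1.998, with *Chat* at 0 in both cortex libraries. The deleted *Ptbp2* exon of 173 nt had a PSI (percent spliced in, the share of transcripts with the exon) of 0 in the NesKO with 257 skipping reads and 99.8 in its wild type, and of 17.4 in the EmxKO (680 skipping reads) and 68.5 in the P1 library labelled wild type. The latter library had 604 skipping reads, against 1 in the E18 wild type, which goes against its label, and it is therefore called the library labelled wild type in what follows. Every P1 comparison rests on it, and the E18 comparison does not use it.

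CaMKII is an abundant kinase of synapses that calcium-bound calmodulin switches on, and its subunits assemble into a large ring through an association domain at the C-terminal end. Between the kinase and association domains lies a variable linker whose length is set by alternative exons, and in the β subunit this region also holds the contact with actin filaments. Calcineurin is the calmodulin-dependent phosphatase that acts against many kinase signals, including on the NFAT transcription factors, and its catalytic A subunit ends in an autoinhibitory segment. Both families have members for which alternative exons are annotated in these regions.

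The exons on which the results turn are printed here because related genes carry related exons that behaved differently. The sequences are from the GENCODE M21 transcripts on GRCm38, 5′ to 3′ on the strand of the gene. The first 3 lines are the 30-nt exons near the 3′ end of the calcineurin genes, at chr3:136932011-136932040 (plus strand) for *Ppp3ca*, chr14:20503247-20503276 (minus) for *Ppp3cb* and chr14:70220017-70220046 (minus) for *Ppp3cc*; capitals mark bases that differ from *Ppp3ca* at the same position.
Ppp3ca 30-nt exon: ctactgttgaggctattgaggctgatgaag
Ppp3cb 30-nt exon: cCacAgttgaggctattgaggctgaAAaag
Ppp3cc 30-nt exon: cCaAACAAgaAgcCGCAgaggAGCGGgaag
*Ppp3cb* differed from *Ppp3ca* at 4 of 30 bases and *Ppp3cc* at 16. All 3 exons are coding and their length is a multiple of 3.

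The next lines show exons of the CaMKII linker, the 45-nt and 75-nt exons of *Camk2b* at chr11:5981070-5981114 and chr11:5987057-5987131 (minus), and a 45-nt exon of *Camk2g* at chr14:20744604-20744648 (minus) with capitals where it differs from the *Camk2b* 45-nt exon. The 42-nt exon of *Camk2d* at chr3:126808208-126808249 (plus) is shown beside them because 34 of 45 aligned positions were identical to the *Camk2b* exon.
Camk2b 45-nt exon: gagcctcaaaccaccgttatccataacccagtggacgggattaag
Camk2g 45-nt exon: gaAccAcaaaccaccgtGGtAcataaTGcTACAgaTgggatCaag
Camk2d 42-nt exon: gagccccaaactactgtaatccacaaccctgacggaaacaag
Camk2b 75-nt exon: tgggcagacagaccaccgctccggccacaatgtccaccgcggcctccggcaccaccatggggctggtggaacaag
Between the 75-nt exon and the 45-nt exon, *Camk2b* uses an exon of 41 nt or of 38 nt, which end at the same base and whose starts lie 3 bases apart. The longer form is at chr11:5982721-5982761 (minus), with the 3 added bases in capitals.
Camk2b 41-nt exon: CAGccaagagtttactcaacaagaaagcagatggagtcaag

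Most exons of the 7 genes differed little between libraries. Skipping could be counted for 116 of the 121 exons, and 57 of these 116 had no skipping read in any library. Among exons with countable skipping, 105 of 112 tested at E18 differed by under 5 PSI points between NesKO and wild type, and at P1 105 of 109 did so between EmxKO and the library labelled wild type. An exon was called changed when Fisher's exact test on inclusion and skipping reads gave an adjusted p below 0.05 and the PSI moved by at least 10 points. By this rule 3 of 116 exons changed at E18, 2 higher and 1 lower in the NesKO, where 0.161% of all 114467 exons tested were called, 0.115% higher and 0.0454% lower. At P1, 2 of 113 changed, both higher in the EmxKO, with 0.22% called among all 117073, 0.174% higher and 0.0453% lower. Of the members labelled as cassette, 2 of 15 tested were called at E18 and 2 of 13 at P1, where 2.16% and 3.09% of all cassette-labelled exons were called. The exons that rose were the same at both stages, the 45-nt exon of *Camk2b* and the 30-nt exon of *Ppp3ca*. The exon that fell at E18 was a 73-nt exon of *Camk2d*.

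**Figure D1:**
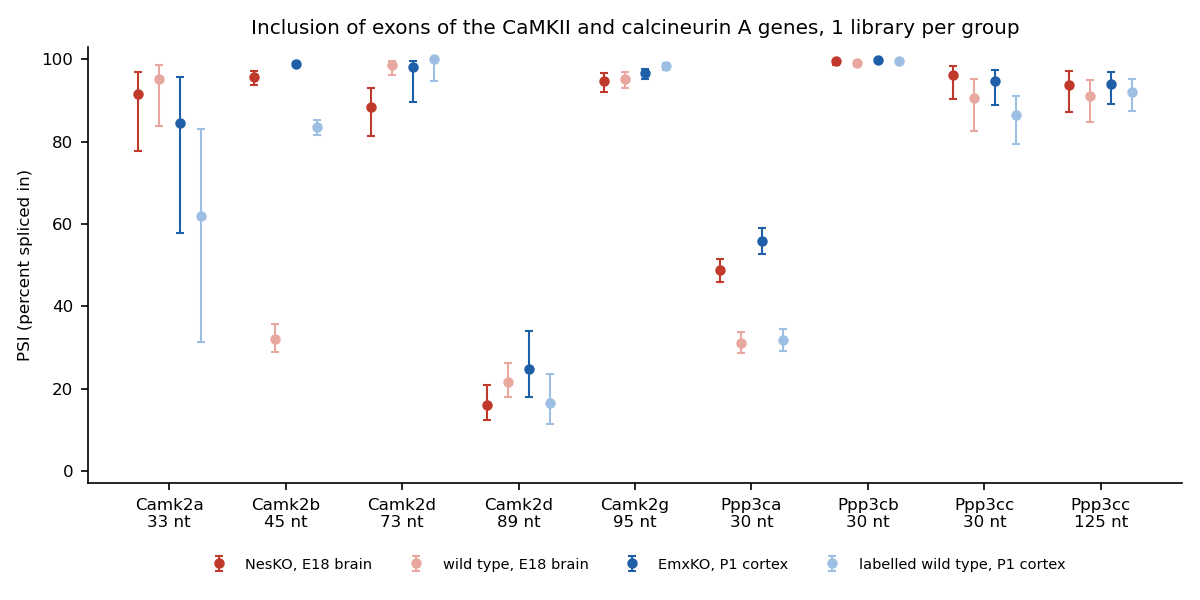
PSI (y axis, percent) of 9 exons of the CaMKII and calcineurin A genes (x axis) in the 4 libraries; bars are 95% Wilson intervals, which cover counting error only. The *Camk2b* 45-nt exon lies at 95.8 and 99.0 in the knockouts and at 32.2 in the E18 wild type and 83.5 in the P1 library labelled wild type, the *Ppp3ca* 30-nt exon at 48.8 and 56.0 against 31.1 and 31.7, while the 30-nt exon of *Ppp3cb* stays at 99.1 or above.

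*Camk2b* encodes the β subunit of CaMKII. Its 45-nt exon (mm9 chromosome 11, 5881073 to 5881117, minus strand) is exon 16 of 24 in the transcript Camk2b-202, and 4 annotated transcripts that span it lack it. In the NesKO, 807 and 324 reads lay on the junctions of the exon and 25 reads skipped it. In the E18 wild type there were 303 and 158 inclusion reads and 486 skipping reads, so that skipping was the more frequent form. The EmxKO had 3113 and 1161 inclusion reads and 22 skipping reads. The P1 library labelled wild type had 2007 and 837 inclusion reads and 281 skipping reads.

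From these reads the PSI of the 45-nt exon was 95.8 (95% Wilson interval, 93.8 to 97.1) in the NesKO and 32.2 (28.8 to 35.6) in its wild type, a rise of 63.6 points (adjusted p = 6.2e-137, Fisher's exact test). It was 99.0 (98.5 to 99.3) in the EmxKO and 83.5 (81.7 to 85.2) in the library labelled wild type, a rise of 15.5 points (adjusted p = 2.3e-74, same exact test). By this count both knockout libraries were above 95, and the other libraries stood far apart from each other. Compared with the E18 wild type, the P1 library labelled wild type was 51.3 points higher (adjusted p = 2e-127, Fisher's exact test), the only member called among 113 in that comparison, where 0.829% of 113015 exons were called. The log odds ratio of inclusion, knockout over wild type as labelled, was 3.85 at E18 and 2.93 at P1, and this difference did not pass the adjusted Wald test. The adjustment ran over 108997 exons, so this result does not show that the effects were alike at both stages. The deposited inclusion ratio, which SpliceTrap corrects, gave 97.1, 40.9, 99.3 and 87.9.

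The flanking exons of the 45-nt exon measure 49 and 72 nt, so only 22 positions exist at which a 100-nt read can lie across the skipping junction inside the trio, against 49 and 67 for the inclusion junctions. Divided by these numbers, the reads gave PSI values of 90.4, 16.2, 97.6 and 67.7. On that scale the difference at P1 was 29.9 points in place of 15.5, with the same direction.

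Just upstream in the linker, the 75-nt exon of *Camk2b* (mm9 chromosome 11, 5887060 to 5887134) is present in 4 annotated transcripts and absent from 6 that span it. In its listed trio it is flanked by the 38-nt form and the 43-nt exon, together shorter than a read, and no skipping read was listed for it in any library. No listed junction joins the 75-nt exon to the 41-nt form. This held for all 3254 trios in the tables whose flanking exons sum to under 100 nt, and their deposited ratio carries no information on skipping. Its use was therefore read from the 43-nt exon before it, whose end can be joined to the 75-nt exon, to the 41-nt exon or to the 38-nt exon.

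In the NesKO, 1445 of 1537 reads leaving the 43-nt exon entered the 75-nt exon, 94.0% (95% Wilson interval, 92.7 to 95.1). In the E18 wild type it was 455 of 1026, 44.3% (41.3 to 47.4). At P1 the share was 82.3% (81.2 to 83.4; 3716 of 4513) in the EmxKO and 64.6% (62.9 to 66.2; 2150 of 3329) in the library labelled wild type. The 75-nt exon was thus taken more often in the knockout library at both stages, by 49.7 points at E18 (adjusted p = 1.7e-177, Fisher's exact test over all sites with several partners) and by 17.8 points at P1 (adjusted p = 6.9e-68). The reads that passed over it mostly entered the 41-nt form, which took 2.54%, 51.2%, 10.3% and 26.0%. The 38-nt form took 3.45%, 4.48%, 7.38% and 9.43%.

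The small shares at such sites depend on the trio in which a junction is listed. The junction between the 49-nt and 72-nt exons of *Camk2b* had 25, 486, 22 and 281 reads in the trio around the 45-nt exon, but 74, 833, 604 and 993 reads in the trio around the 72-nt exon, where the 45-nt exon is not part of the model. Whether reads of a neighbouring junction enter the shares of the 41-nt and 38-nt exons was not tested. Inside its own trio the 75-nt exon had 422 and 208 inclusion reads in the NesKO against 81 and 52 in its wild type, and 2371 and 823 in the EmxKO against 1328 and 411. Over all members, 3 of 24 such sites were called at E18 and 4 of 24 at P1, where 2.48% and 2.75% of all sites were called. Of these, the sites at the 72-nt exon of *Camk2b* and at the exon before the *Ppp3ca* 30-nt exon show the called exons again. At the 72-nt exon, the junction to the 45-nt exon took 89.3%, 33.6%, 84.1% and 69.5% of the reads. These shares have the direction of the PSI of the 45-nt exon, but those of both knockout libraries are lower than its PSI.

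**Figure D2:**
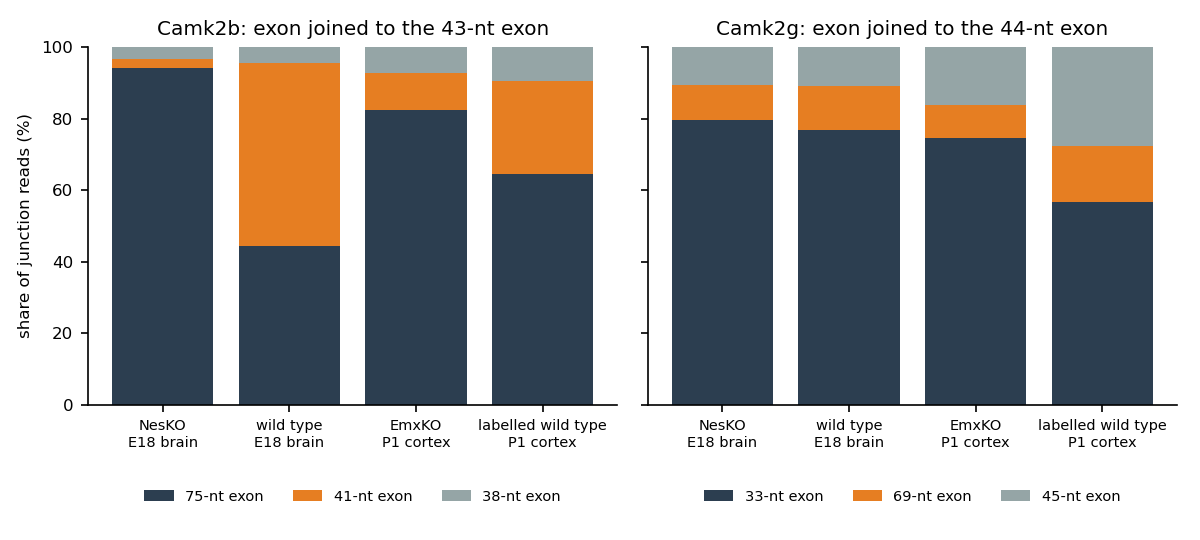
Share of junction reads (y axis, percent) that join the 43-nt exon of *Camk2b* (left) or the 44-nt exon of *Camk2g* (right) to each of 3 downstream exons, in the 4 libraries (x axis). In *Camk2b* the 75-nt exon takes 94.0% in the NesKO and 44.3% in its wild type; in *Camk2g* the 33-nt exon takes 74.5% in the EmxKO and 56.8% in the library labelled wild type but 79.6% and 76.9% at E18.

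The other cassette exons of *Camk2b* had few inclusion reads in their own trios. The 129-nt exon (mm9 chromosome 11, 5876768 to 5876896) had 1033, 774, 1776 and 1494 skipping reads and PSI values between 1.16 and 2.03 in its own trio. In the trio around the 49-nt exon, the share of reads listed on the junction with this exon was 0.451% (8 of 1775) in the NesKO against 8.94% (141 of 1577), and 0.728% (33 of 4533) in the EmxKO against 4.52% (162 of 3583) in the library labelled wild type. These shares were lower in the knockout library at both stages (adjusted p = 6.2e-35 and 5.3e-27, Fisher's exact test) by under 10 points, while the trio around the 129-nt exon listed 12, 9, 17 and 8 reads on the same junction. The 33-nt exon (5889939 to 5889971) had at most 3 inclusion reads on a junction and 868 to 2783 skipping reads, with PSI values of 0.0718 or below. At the 84-nt exon, counted in the trio around that exon, 9.61%, 14.7%, 13.7% and 12.2% of reads were listed on the junction to the 33-nt exon, so the listings disagree for this exon too. Neither exon was called at either stage.

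*Ppp3ca* encodes the α form of the calcineurin catalytic subunit. Its 30-nt exon (mm9 chromosome 3, 136594975 to 136595004, plus strand) is exon 13 of 14. The NesKO had 883 and 273 inclusion reads and 607 skipping reads, and the E18 wild type 632 and 176 inclusion reads and 893 skipping reads. The EmxKO had 828 and 210 inclusion reads and 408 skipping reads, and the P1 library labelled wild type 606 and 155 inclusion reads and 818 skipping reads. In both libraries labelled wild type skipping outnumbered either inclusion junction, and in the EmxKO it did not exceed the mean of both.

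The PSI of the *Ppp3ca* 30-nt exon was 48.8 (95% Wilson interval, 45.9 to 51.6) in the NesKO and 31.1 (28.7 to 33.7) in its wild type, a rise of 17.6 points (adjusted p = 7.4e-16, Fisher's exact test). In P1 cortex it was 56.0 (52.8 to 59.2) in the EmxKO and 31.7 (29.1 to 34.4) in the library labelled wild type, a rise of 24.2 points (adjusted p = 1e-25, same exact test). Unlike the *Camk2b* exon, it was at a like level in both libraries labelled wild type, which differed by 0.599 points (adjusted p = 1, Fisher's exact test). The log odds ratios of 0.74 at E18 and 1.01 at P1 did not differ by the adjusted Wald test. Its flanking exons are long enough for 98 read positions on the skipping junction, and dividing by read positions left the PSI at 48.7, 31.1, 55.9 and 31.7. The listings disagree for this exon too. In the trio around the 98-nt exon before it, the left junction had 276, 217, 274 and 207 reads. Of the reads leaving the 98-nt exon there, 28.4%, 18.1%, 38.1% and 19.7% entered the 30-nt exon. The level thus depends on the trio, while the share was again higher in the knockout library at both stages. The deposited ratios were 62.7, 44.8, 67.5 and 43.5.

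The 30-nt exons of the other calcineurin genes were included in most transcripts of every library. For *Ppp3cb* (mm9 chromosome 14, 21322469 to 21322498, minus strand), whose exon differs from that of *Ppp3ca* by 4 bases, skipping reads numbered 2, 9, 2 and 9 beside 969, 1675, 2125 and 3897 reads on the left junction. Its PSI was 99.6, 99.1, 99.8 and 99.6, and it was not called. For *Ppp3cc* (70619824 to 70619853), the more divergent exon, the PSI was 96.1 (95% Wilson interval, 90.3 to 98.5) in the NesKO and 90.6 (82.7 to 95.2) in its wild type, and 94.6 (88.8 to 97.5) in the EmxKO and 86.4 (79.5 to 91.2) in the library labelled wild type. The *Ppp3cc* values were higher in the knockout at both stages, by 5.45 and 8.28 points, but on 4, 8, 6 and 18 skipping reads, the intervals overlapped and the differences did not pass the test (adjusted p = 1 at each stage, Fisher's exact test).

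*Ppp3cc* has 2 cassette-labelled exons. The 125-nt exon (mm9 chromosome 14, 70666437 to 70666561) had PSI values of 93.8, 91.1, 94.1 and 92.2, with 6 to 15 skipping reads. The 27-nt exon (70625735 to 70625761) had no inclusion read in its own trio in either knockout, which allows a PSI of up to 4.11 in the NesKO and 3.26 in the EmxKO there, and 2 reads on 1 junction in each of the other libraries. In the trio around the 69-nt exon, however, 20 of 162, 15 of 137, 15 of 156 and 26 of 192 reads were listed on its junction (12.3%, 10.9%, 9.62% and 13.5%), so the limits hold only for the exon's own trio. No difference in *Ppp3cc* was called.

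*Camk2d* encodes the δ subunit. The called exon measures 73 nt (mm9 chromosome 3, 126473703 to 126473775) and is followed in the gene by another exon of 73 nt (126474692 to 126474764). The sequences of these exons were identical at 52 of 74 aligned positions, and 11 annotated transcripts hold the first and 2 the second. In the NesKO 97 and 103 reads included the first exon and 13 skipped it, and in the E18 wild type 263 and 189 included it and 3 skipped it. The EmxKO had 1 skipping read beside 54 and 46 inclusion reads, and the P1 library labelled wild type none beside 82 and 56. The PSI was 88.5 (95% Wilson interval, 81.3 to 93.2) in the NesKO and 98.7 (96.2 to 99.6) in its wild type, a fall of 10.2 points (adjusted p = 0.033, Fisher's exact test), and 98.0 against 100 at P1. This call rests on 16 skipping reads and ended when the smaller of the inclusion counts or only the most-read trio was used, and by the deposited ratio the difference was -7.8 points, under the limit of 10. Of the skipping reads at E18, 12 (NesKO) and 2 (wild type) join the 66-nt exon to the 103-nt exon, and 1 in each joins it to the 99-nt exon. At E18 the second 73-nt exon had PSI values of 58.1 (NesKO) and 90.0 (wild type) with 13 and 2 skipping reads, and a 1062-nt exon that spans both had 78.0 and 97.8. Neither passed Fisher's exact test (adjusted p = 1 and 0.062). The trio of each 73-nt exon counts no reads of the other, so their PSI values are not read as shares of transcripts. Of the reads leaving the 66-nt exon at E18, 4 of 56 (NesKO) and 3 of 147 (wild type) entered the second 73-nt exon. Of those entering the 103-nt exon, 37 of 155 and 36 of 240 came from the end of the second 73-nt and 1062-nt exons. These shares did not differ by the test (adjusted p = 0.56 and 0.35, same exact test).

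The 89-nt cassette exon near the 3′ end of *Camk2d* (mm9 chromosome 3, 126544403 to 126544491) was mostly skipped. Its PSI was 16.0 (12.4 to 20.8) in the NesKO against 21.6 (17.9 to 26.2), and 24.9 (18.1 to 34.0) in the EmxKO and 16.6 (11.4 to 23.4) in the library labelled wild type. It was lower in the knockout at E18 and higher at P1, and neither difference passed Fisher's exact test (adjusted p = 1), nor did the difference between them pass the adjusted Wald test. The linker exons of *Camk2d*, of 60 and 42 nt, were covered by few reads. Among reads entering the 42-nt exon, printed above, those from the 60-nt exon made up 46 of 51 in the NesKO against 44 of 57, and 26 of 30 in the EmxKO against 20 of 30. These shares were 90.2%, 77.2%, 86.7% and 66.7%, and their intervals overlapped at each stage. The cassette exons of 99 and 55 nt (126482819 and 126482863 to 126482917) had PSI values of 1.62 or below.

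*Camk2g* encodes the γ subunit, and its linker has alternative exons of 33 and 69 nt before an exon of 45 nt. Each of these can follow the 44-nt exon. Of the annotated transcripts spanning them, 6 lack the 33-nt exon, 3 the 69-nt exon and 0 the 45-nt exon. A junction from the 44-nt to the 45-nt exon thus leaves out both the 33-nt and 69-nt exons. The own trios of the 33-nt exon held 1, 11, 22 and 32 reads on the left junction, none on the right and 3, 3, 7 and 14 skipping reads, too few for the test. Of the reads leaving the 44-nt exon, 90 of 113 entered the 33-nt exon in the NesKO and 133 of 173 in the E18 wild type, which are 79.6% (95% Wilson interval, 71.3 to 86.0) and 76.9% (70.1 to 82.5) and did not differ by the test (adjusted p = 1, Fisher's exact test). At P1, 257 of 345 reads entered it in the EmxKO, 74.5% (69.6 to 78.8), and 189 of 333 in the library labelled wild type, 56.8% (51.4 to 62.0), which is 17.7 points higher in the knockout (adjusted p = 6.9e-05, same exact test). The junction to the 45-nt exon, which leaves out the other linker exons, took 16.2% in the EmxKO and 27.6% in the library labelled wild type. This is a difference of -11.4 points (adjusted p = 0.011, same exact test), and at E18 the junction took 10.6% and 11.0%. The 69-nt exon took 9.28% and 15.6% at P1 and 9.73% and 12.1% at E18. Whether the effects differ between the stages was not tested at this site. These shares, too, were not divided by read positions, which differ with the length of the joined exon.

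The 95-nt cassette exon of *Camk2g* (mm9 chromosome 14, 21584083 to 21584177) was included in most transcripts, with a PSI of 94.8, 95.3, 96.7 and 98.5 with 20, 23, 31 and 12 skipping reads, and was not called. The 63-nt cassette exon (21576888 to 21576950) has flanking exons shorter than a read together and no countable skipping, with 35, 39, 222 and 163 reads on its left junction.

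*Camk2a* encodes the α subunit and has 1 cassette exon, of 33 nt (mm9 chromosome 18, 61128665 to 61128697), which in the αB isoform carries a nuclear localization signal. Counted in its own trios, it had 65, 78, 22 and 13 reads on the left junction and 3, 2, 2 and 4 skipping reads, for PSI values of 91.5, 95.1, 84.6 and 61.9. The P1 values rest on too few reads and were not tested. At the 49-nt exon that follows, where more reads can be counted, 87 of 264, 136 of 460, 75 of 274 and 67 of 256 reads came from the 33-nt exon, and all others from the 41-nt exon before it. The 95% Wilson intervals of these shares overlapped, at 27.6 to 38.8%, 25.6 to 33.9%, 22.4 to 32.9% and 21.2 to 31.9%. The PSI from the trios and the share at the 49-nt exon thus differ widely, and the trio value is based on the fewer reads. The junction that skips the 33-nt exon had 177, 324, 199 and 189 reads in the trio around the 49-nt exon. In the trio of 41, 33 and 49 nt, whose flanking exons are together shorter than a read, it had 0 reads in every library. The own trios also listed 0 reads on the right junction. Their PSI is therefore not read as a share of transcripts.

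No member differed between the stages by the Wald test on the knockout effects, 0 of 113, where 0.0679% of 108997 exons were called; 3 of the 113 had an unadjusted p below 0.05. Comparisons between stages also carry a shift in where reads fall. The log2 ratio of reads on the left to reads on the right junction of a trio moved by a median of 0.51 between the libraries labelled wild type over 103 member trios, against 0.27 between NesKO and wild type at E18 and 0.11 in the P1 comparison.

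The exons of other genes whose PSI over the 4 libraries lay closest to the *Camk2b* 45-nt exon were found by Euclidean distance among 63221 exons with at least 100 reads in each library. Among the closest were exons of *Nbdy* (25.1 points), *Rims2* (27.3), *Tnk2* (30.6) and *Zfp286* (31.9). For the *Ppp3ca* 30-nt exon the closest were exons of *Acly* (5.69), *Ahi1* (7.07), *Adgrl2* (8.49), *Oxr1* (9.19) and *Mars* (9.42). The 30-nt exon of *Acly*, which encodes ATP citrate lyase, had PSI values of 50.7, 31.2, 53.7 and 36.6. This distance describes likeness of the 4 values and nothing more.

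The level of each gene was taken as the median, over its annotated adjacent junctions, of RPM, with no test. In the E18 wild type *Ppp3ca* was at 21.04 RPM per junction and *Camk2b* at 15.2, followed by *Camk2a* (7.997), *Ppp3cb* (6.43), *Camk2g* (4.36), *Ppp3cc* (2.15) and *Camk2d* (1.97). In the P1 library labelled wild type *Camk2b* (26.8) and *Ppp3cb* (25.5) came first, then *Ppp3ca* (11.9), *Camk2g* (7.99), *Camk2a* (3.797), *Ppp3cc* (1.87) and *Camk2d* (0.705). *Ppp3cb* was thus below *Ppp3ca* in the former and above it in the latter.

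**Figure D3:**
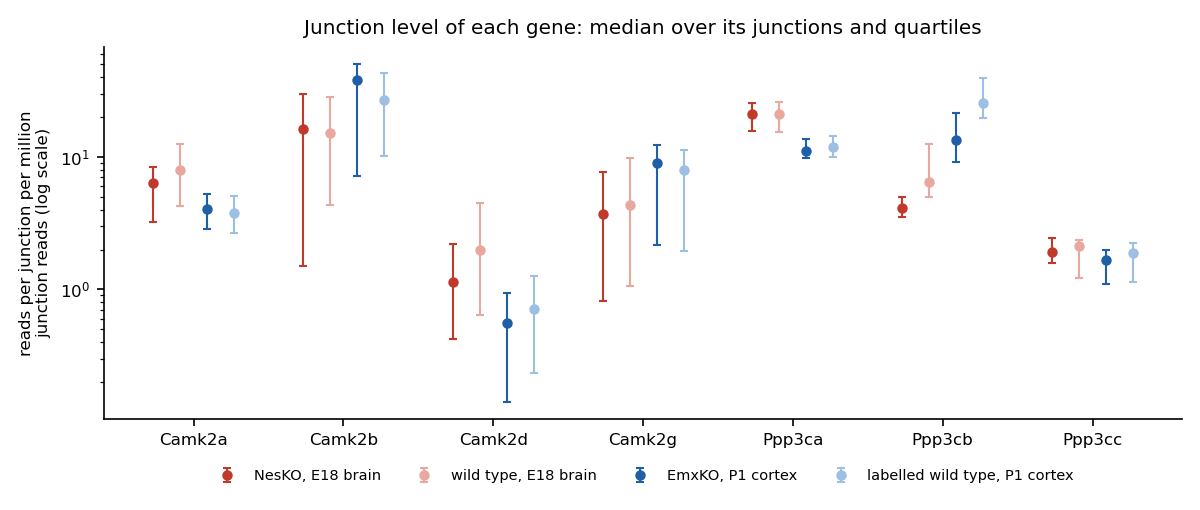
Level of each gene (x axis) as RPM per junction (y axis, log scale) in the 4 libraries; points are medians over the junctions of the gene and bars the quartiles over these junctions, not replicates. *Ppp3cb* lies at 13.4 in the EmxKO and 25.5 in the library labelled wild type, and *Ppp3ca* at 11.1 and 11.9.

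*Ppp3cb*, which encodes the β form of calcineurin A, was lower in the knockout library at both stages. At E18 it had 4.13 RPM per junction beside 6.43, a ratio of 0.642, and at P1 13.4 beside 25.5 in the library labelled wild type, a ratio of 0.526. All 14 junctions of the gene were lower in the knockout at each stage, with ratios between 0.362 and 0.880 at E18 and between 0.435 and 0.565 at P1. *Camk2d* had 1.13 in the NesKO and 1.97 in its wild type, a ratio of 0.575 with 20 of 22 junctions lower, and 0.554 against 0.705 at P1, a ratio of 0.786. These were the genes past 1.5-fold, 2 of 7 lower at E18 and 1 of 7 at P1, where 6.56% of 9696 genes and 17% of 9974 genes were lower by that much. The median ratio over all genes was 0.978 at E18 and 1.03 at P1.

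The other genes lay within 1.5-fold. *Camk2b* had 16.3 in the NesKO and 15.2 in its wild type, and 37.8 in the EmxKO and 26.8 in the library labelled wild type, ratios of 1.07 and 1.41. *Ppp3ca* had ratios of 1.00 and 0.935, *Camk2a* of 0.802 and 1.07, *Camk2g* of 0.856 and 1.12, and *Ppp3cc* of 0.886 and 0.890. The rise of the *Ppp3ca* 30-nt exon thus went with a level of the gene that was close to that of the library compared at each stage. The tissue is a mixture of cells, so fewer cells of a type and less RNA per cell cannot be told apart. Among markers of other cells, *Csf1r*, a receptor of microglia, was at 3.17 in the NesKO and 2.18 in its wild type and at 1.999 and 1.34 at P1. The summed level of 2 measured microglia markers was 1.45 (E18) and 1.52 (P1) times that of the library labelled wild type, and *Gfap*, an astrocyte gene, was at 2.63 and 2.38 times. The other astrocyte markers did not follow, with *Slc1a3* at 0.509 and 1.04 times and *Aldh1l1* at 0.895 and 1.01 times. The sums for progenitors, astrocytes, endothelium and inhibitory neurons lay between 0.796 and 1.24 times, and that for the oligodendrocyte lineage at 0.701 and 1.16. The summed level of 5 neuronal markers was 0.861 and 1.18 times that of the library labelled wild type, with *Snap25*, a synaptic protein gene, at 0.429 and 0.497. This sum is mostly *Tubb3*, which made up 383.5 of 442.9 in the E18 wild type and 392.2 of 456.2 in the P1 library labelled wild type. *Tubb3* was at 0.910 and 1.25 times, *Rbfox3* at 0.883 and 1.30, *Map2* at 0.747 and 0.668, and *Syt1* at 0.484 and 0.972. The summed level of 4 markers of subcortical neurons was 0.827 and 0.466 times that of the library labelled wild type. Their part in the levels of *Ppp3cb* and *Camk2d* was not tested.

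**Figure D4:**
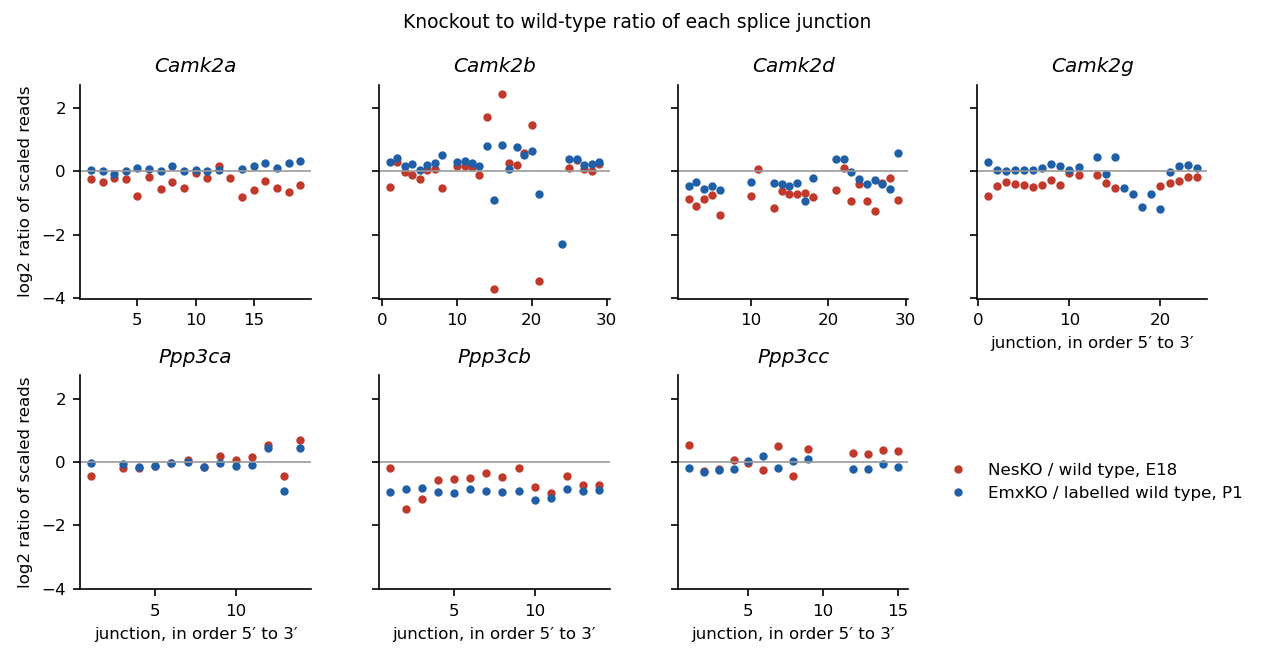
Log2 ratio of scaled reads, knockout to wild type as labelled (y axis), for each junction of the 7 genes in order from 5′ to 3′ (x axis), at E18 (red) and P1 (blue); junctions with at least 20 reads in both libraries are shown. All 14 *Ppp3cb* junctions lie below 0 at both stages, and the *Camk2b* junctions far from 0 are those around the 75-nt and 45-nt exons and, at P1, the junction of the 49-nt exon with a rarely used 129-nt exon.

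Along *Camk2b* the first 7 junctions had log2 ratios between -0.49 and 0.30 at E18, while those of the linker lay on both sides of 0. At E18 the log2 ratio of scaled reads was 1.72 and 2.43 on the junctions of the 75-nt exon and 1.47 on that between the 45-nt and 49-nt exons, against -3.70 on the junction from the 43-nt to the 41-nt exon and -3.44 on that between the 72-nt and 49-nt exons. At P1 the same junctions had 0.79, 0.84, 0.64, -0.89 and -0.71. In *Camk2d* the median ratio at E18 was 0.548 over the 5′ part of its junctions and 0.612 over the 3′ part, and in *Ppp3cb* 0.685 and 0.601, so the lower level was present along both genes.

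The pathway around the 2 enzymes was read from a list of 34 genes (among them other calmodulin-dependent kinases and regulators and targets of calcineurin), of which 30 had trios. No exon of these genes was called at E18 (0 of 247) or at P1 (0 of 246), whose backgrounds are given above. One exon came close and is named after its value was seen, a 129-nt cassette exon of *Camkk2*, a kinase that activates CaMKI and CaMKIV. Its PSI was 98.1, 97.7, 97.5 and 87.7, with 29 and 111 skipping reads at P1. The difference of 9.79 points passed the test (adjusted p = 1.7e-15, Fisher's exact test) but not the limit of 10 points.

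Of the pathway genes with enough reads, 1 of 22 was higher and 2 were lower past 1.5-fold at E18. At P1, 1 of 24 was higher and 2 were lower. Among all genes, 2.81% (E18) and 4.43% (P1) were higher by that much, and 6.56% and 17% were lower. Those named were chosen after their values were seen. *Camk4*, a nuclear calmodulin-dependent kinase, was lower at both stages, at 1.78 RPM per junction in the NesKO against 3.07 and at 1.16 in the EmxKO against 2.40. *Camk1d* was lower at E18 (ratio 0.572). *Dapk3* was higher at E18 (1.87) and *Camk1* at P1 (1.65). *Ppp3r1*, the regulatory B subunit that pairs with the catalytic subunits, had ratios of 0.691 and 0.861. The median ratio of the list was 0.888 at E18 and 1.09 at P1, beside 0.978 and 1.03 over all genes.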

How the data were processed

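The authors mapped 100-nt paired-end reads of polyA+ RNA with SpliceTrap to a transcript database built of exon groups; the submitters' processing notes also name CASAVA, TopHat, Cufflinks and build mm9. The deposited values are counts, the whole reads on both inclusion junctions and the skipping junction of each trio, and the deposited inclusion ratio is a fraction from 0 to 1 before and after SpliceTrap's correction. Exon starts, run together with ends in the tables, were recovered from the exon lengths. Mapped reads that lie inside exons were not used here.

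Members and lists were chosen with earlier results of these data known. PSI is the mean of the inclusion junction sums over its sum with the skipping reads, from trios with that middle exon. Exons with at least 20 reads in both libraries were compared by two-sided Fisher's exact test, adjusted by Benjamini-Hochberg over all exons tested, and called at 10 PSI points and adjusted p below 0.05. The difference between stages was a Wald test of log odds ratios with 0.5 added to each count. Where several exons can be joined to one, the share of each partner was compared by Fisher's exact test over all such sites. Gene levels are not tested. Intervals are Wilson at 95%, and these, like the limits for a count of 0 (3 of the reads counted), hold counting error alone. The exons named are those labelled cassette, called, or past the test by at least 5 points, with the 5 exons of other genes closest to the called *Camk2* and *Ppp3* exons; of the pathway list, genes with a called exon, of which there were none, so the pathway genes named were chosen after their values were seen. Some results that these rules select are not reported here. In *Camk2a* no sequence was printed. The calculations used Python 3.11.15, numpy 2.4.6, scipy 1.17.1, pandas 2.3.3 and matplotlib 3.10.9 and were tested on simulated data. Alternatives were other minimum reads (10 and 50), 20 points, no test, the smaller inclusion sum, the most-read trio, the deposited ratio, only cassette exons, 1 added in the Wald test, other scalings of gene levels and, chosen after seeing the data, only exons with countable skipping, reads divided by read positions, and 50 reads per site. Motif counts in flanking introns were planned and not run.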

Additional observations from a re-analysis of the deposited data

How the results depend on the processing

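No paired analysis was possible because each group is 1 library. The *Camk2b* 45-nt and *Ppp3ca* 30-nt exons kept their direction and a difference over 10 points under every alternative that recomputed the PSI at E18 and P1 (56.2 to 74.2 and 11.4 to 29.9 points for *Camk2b*, 14.6 to 17.9 and 18.1 to 24.2 for *Ppp3ca*). At 20 points, 1 exon was called at E18 (*Camk2b*) and 1 at P1 (*Ppp3ca*). With 10 points and no test, 5 were called at E18, the *Camk2b* and *Ppp3ca* exons with both 73-nt exons and the 1062-nt exon of *Camk2d*. By the deposited ratio with no test, 2 were called between the libraries labelled wild type, the second being the 1062-nt *Camk2d* exon. The call of the first *Camk2d* 73-nt exon was lost with the smaller inclusion sum (a difference of -10.3 points) and with the most-read trio, and its difference was -7.8 points by the deposited ratio. Among 39 alternatives for counts, the other 35 stayed within 1.5 times the count reported. With counts this small the limit says little, since a drop from 3 called exons to 2 stays within it. It also does not compare which exons were called. Of 144 alternatives for single exons and genes, 137 stayed within the counting interval or on the same side of the threshold, and none changed the direction of a called value. The 6 that left the counting interval all belong to the *Camk2b* 45-nt exon. They are the deposited ratio and the reads divided by read positions, at both stages, so the size of its difference depends on the measure. Motif counts were not run, since they need intron sequence that was not used here. Depth limits the *Camk2a* 33-nt, *Camk2d* 42-nt and 60-nt and *Camk2g* 33-nt exons.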

Other observations

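The tables also list alternative starts and ends inside the 7 genes, whose deposited ratios were not tested. In *Camk2d* an alternative start of 989 nt before the second 73-nt exon (mm9 chromosome 3, 126473703 to 126474691) had a deposited ratio of 78.5% in the NesKO and 90.5% in the E18 wild type, and of 68% in the EmxKO and 82.6% in the P1 library labelled wild type, on 4, 3, 3 and 2 reads for the shorter form. The ratio was lower in the knockout library at both stages. Most reads listed for the longer form (52, 144, 42 and 57) lie on the junction from the 66-nt exon to the start of the first 73-nt exon. At the other end of the 989 nt only 18, 6, 2 and 1 reads were listed. The ratio is therefore not read as the use of a 989-nt extension. An alternative end of 989 nt after the first 73-nt exon (126473776 to 126474764) was at 8.2%, 4.5%, 2.8% and 1.3% in the same order. In *Ppp3cb* a 3-nt tandem start (chromosome 14, 21328720 to 21328722) was at 53.4%, 51.8%, 55.3% and 56.9%, and the corresponding junctions, joined to the 78-nt exon in annotated trios, gave 55.2%, 52.1%, 55.9% and 56.8% for the longer form, which were not called (adjusted p = 0.86 and 1, Fisher's exact test). A 16-nt tandem end in *Camk2g* (chromosome 14, 21556481 to 21556496) was at 99.8% or above in every library.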
